A study of Mus musculus with 12 samples.

Results

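The genes described here belong to the MHC class II presentation pathway and were followed by RNA-seq in mouse bone marrow-derived macrophages (BMDMs): H2-Aa, H2-Ab1, H2-Eb1, Cd74, H2-DMa, H2-DMb1, Ciita and Ctss. They were chosen by name for their place in the pathway, with earlier results of these data known. They are 8 of the 48795 genes that the counts list. WT and Acod1-/- BMDMs, grown from bone marrow cells with M-CSF, received vehicle, particulate matter (PM) at 20 µg/cm2 for 24 hours, or 4-octyl itaconate (OI) at 0.25 mM for 2 hours before the same PM exposure (OI+PM). OI is a form of itaconate that enters cells, and PM was an urban dust standard. Each of the 6 groups had 2 libraries. WT cells carried the strain label C57BL/6, given as C57BL/6NJ in the study's methods, and Acod1-/- cells the label C57BL/6NJ-Acod1em1(IMPC)J/J, a constitutive knockout of the enzyme that makes itaconate. No group received OI without PM, so an effect of OI alone and an effect on the PM response cannot be told apart. Neither the labels nor the methods say whether the 2 libraries of a group came from separate mice, and the p-values below measure only the spread between these libraries.

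The libraries held between 33616577 and 36817898 counts on genes. Of the genes listed, 11228 had a CPM (counts scaled to a common library total) above 1.5 in at least 2 libraries and were tested, and 6 of the 8 class II genes were among them. H2-Aa passed this filter through its PM libraries alone, the group in which it was highest, so counts over the tested members are also given without it. H2-Eb1 and Ciita were below that limit, and their tests come from a fit of the 17642 genes with at least 10 counts in all. A gene was called when its adjusted p was 0.05 or less in edgeR's quasi-likelihood test. Replicates differed by more than counting noise in every group, with a chi-square per degree of freedom from 2.61 in vehicle-treated Acod1-/- BMDMs to 58.5 in OI+PM-treated WT BMDMs. Between the 2 OI+PM-treated WT libraries, the difference ran with gene length (Spearman rho of -0.61 across genes), and it did so in PM-treated WT BMDMs as well (-0.60). The knocked-out gene was still counted in Acod1-/- BMDMs. Acod1 stood at 101 ± 9.57 normalised CPM (SD, n = 2) in PM-treated Acod1-/- BMDMs against 176 ± 7.78 in WT, and the difference was not called (adjusted p = 0.0807). A count over the whole gene cannot show whether a deleted part is absent, so it checks the genotype labels no further.

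MHC class II molecules display peptides from endocytosed proteins to helper T cells. An alpha and a beta chain, H2-Aa with H2-Ab1 in the I-A molecule, pair in the endoplasmic reticulum with the invariant chain Cd74, which fills the peptide groove until cathepsin S (Ctss) trims it in endosomes and the H2-DM heterodimer (H2-DMa with H2-DMb1) exchanges the remaining fragment for peptide. Transcription of the chain genes, Cd74 and the H2-DM genes depends on CIITA, a coactivator without DNA-binding activity of its own. It docks on RFX, CREB and NF-Y proteins that sit on the X and Y boxes of class II promoters. In macrophages interferon-gamma induces Ciita, in part through IRF1, and resting BMDMs carry little class II.

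RefSeq promoter windows on GRCm38.p6 were at hand for 5 of the 8 genes. The 3 windows shown carry the X and Y box letters in the same order. Only letters were matched, and their part in the response was not tested. The capitals mark the letters GNAACT, the core of the X box, and TGATTGG, the Y box. Both lie on the gene's own strand, with starts 31 bases apart upstream of H2-Aa (chr17:34287854-34287924, minus strand) and 30 bases apart upstream of H2-Eb1 (chr17:34305756-34305825, plus strand). For H2-DMb1 the letters are 31 bases apart, and the X box alone is given (chr17:34153093-34153112, plus strand) because the stretch lies in an annotated first exon.
H2-Aa: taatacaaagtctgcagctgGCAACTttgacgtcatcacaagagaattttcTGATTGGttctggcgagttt
H2-Eb1: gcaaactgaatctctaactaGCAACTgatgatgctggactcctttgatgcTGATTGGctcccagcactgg
H2-DMb1: cctaGTAACTgatgatgcta

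The X box core began 81, 91 and 94 bases before the RefSeq start sites of H2-Aa, H2-Eb1 and H2-DMb1. Searched on both strands over the 250 bases before a start site, GNAACT was present in 37.3% of 32851 windows and TGATTGG in 7.23%, and the letters do not overlap each other. GNAACT 30 or 31 bases before TGATTGG, a spacing read from these genes, occurred in 10 windows (0.0304%), among them those of H2-Aa, H2-Eb1, H2-DMb1 and the class II gene H2-Eb2. The windows of H2-DMa and Ctss held neither set of letters. Sequences of H2-Ab1, Cd74 and Ciita are not given.

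H2-Aa, H2-Ab1, H2-Eb1, H2-DMa and H2-DMb1 lie in the MHC region of chromosome 17 between positions 34119541 and 34316674 of GRCm38. Cd74 lies on chromosome 18, Ciita on chromosome 16 and Ctss on chromosome 3. Exons of H2-DMa overlap those of Brd2 on the other strand, exons of Ciita those of Dexi on the other strand, and exons of Cd74 hold a microRNA gene. Whether the counting used strand is not given in the sources used here, so counts of H2-DMa and Ciita may include reads of their neighbours. Per kilobase of exon, the levels in vehicle-treated WT BMDMs ran over several orders of magnitude. Ctss stood at 2290.4 CPM per kb, H2-DMb1 at 15.7, H2-DMa at 4.37, Cd74 at 2.76, H2-Ab1 at 0.864, H2-Eb1 at 0.430, H2-Aa at 0.330 and Ciita at 0.0273. No neighbours in this order overlapped between libraries in that group. After PM the per-kilobase levels of H2-Aa (0.692 and 0.842) and H2-Eb1 (0.720 and 0.816) overlapped in WT BMDMs.

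H2-Aa, H2-Eb1 and Cd74 rose after PM in both genotypes and H2-Ab1 in Acod1-/- BMDMs, and all 4 fell to below their vehicle level when OI preceded PM, in both genotypes. Their summed level was 8.95 ± 0.307 normalised CPM in vehicle-treated, 17.7 ± 0.355 in PM-treated and 3.72 ± 0.343 in OI+PM-treated WT BMDMs (SD, n = 2 each). The sums were 9.09 ± 1.29, 18.0 ± 0.590 and 3.91 ± 0.169 in Acod1-/- BMDMs. Cd74 was the largest part of each sum, with group means of 4.64, 10.2 and 2.02 in WT and 5.99, 11.7 and 2.53 in Acod1-/- BMDMs. The sums after PM and after OI+PM did not overlap those with vehicle in either genotype. No change of H2-DMa, H2-DMb1 or Ctss reached 2-fold in these comparisons, and Ciita fell with OI without a called change after PM. The RNA came from whole cultures, in which fewer cells of a type and less RNA per cell cannot be told apart.

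**Figure D1:**
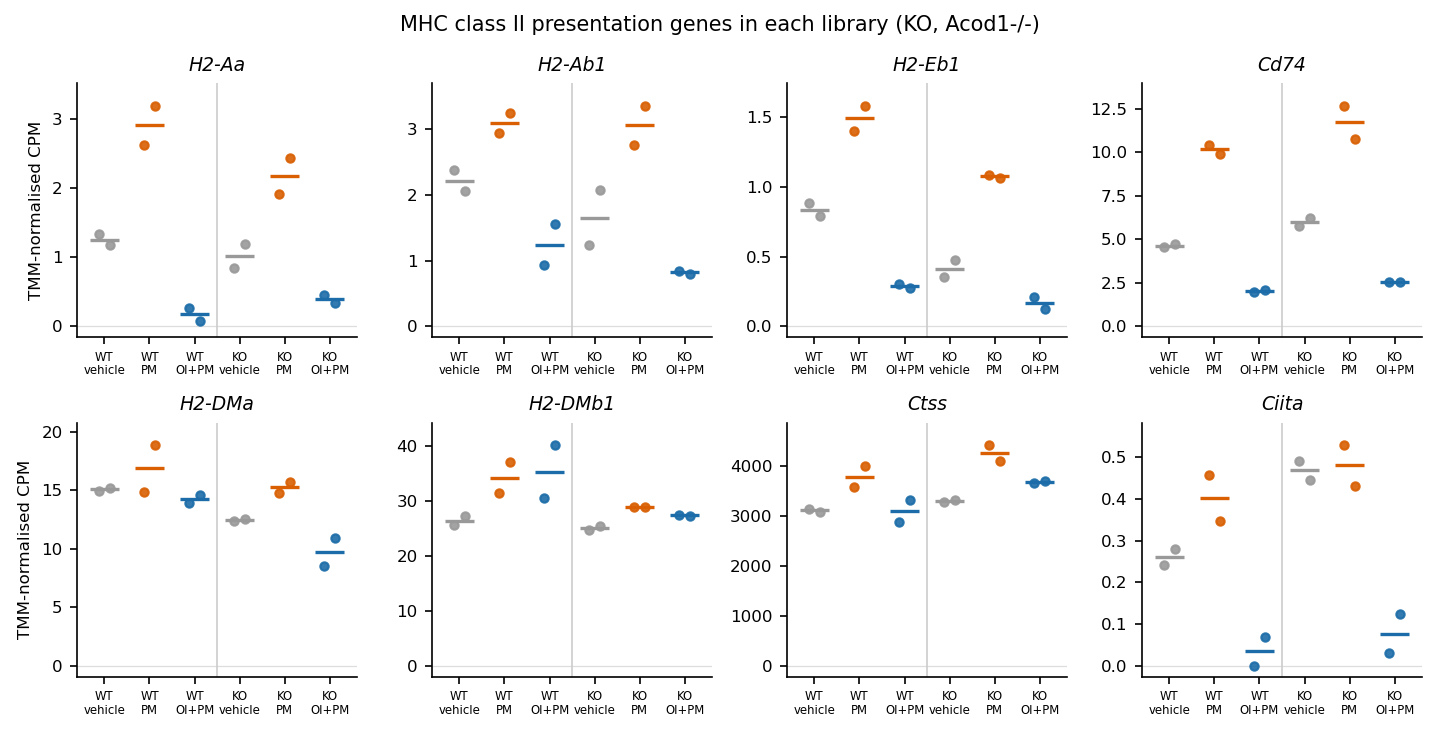
TMM-normalised CPM (vertical axis, from 0 and on its own scale for each gene) of the 8 class II genes in each of the 12 libraries (points), with the mean of the 2 libraries of a group as a line. In the panels of H2-Aa, H2-Ab1, H2-Eb1 and Cd74 the OI+PM libraries are the lowest of each genotype, whereas those of H2-DMb1 lie between 27.3 and 40.1 CPM and are not.

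H2-Aa encodes the alpha chain of I-A. Its normalised CPM in the 2 libraries of a group was 1.34 and 1.17 with vehicle, 2.63 and 3.20 with PM, and 0.270 and 0.0677 with OI+PM in WT BMDMs. The respective values were 0.847 and 1.19, 1.91 and 2.44, and 0.451 and 0.339 in Acod1-/- BMDMs. The 3 treatments did not overlap in either genotype, with PM highest and OI+PM lowest. H2-Aa rose 2.32-fold with PM in WT (log2 fold change 1.22 ± 0.243 SE, adjusted p = 0.00589) and 2.13-fold in Acod1-/- BMDMs (1.09 ± 0.265, adjusted p = 0.0143). Under OI+PM it fell 16.4-fold from PM in WT (-4.03 ± 0.372, adjusted p = 1.41e-05) and 5.47-fold in Acod1-/- BMDMs (-2.45 ± 0.326, adjusted p = 0.000212). The OI+PM level was also 7.05-fold below vehicle in WT (adjusted p = 0.000317) and 2.56-fold below it in Acod1-/- BMDMs (adjusted p = 0.0122). H2-Aa passed the CPM filter through its PM libraries alone, so its p-values against PM under that filter may be too small. Each of these calls remained under the count filter used for H2-Eb1 and Ciita. H2-Aa meets that filter without its PM libraries, with 96 counts over the vehicle-treated WT libraries. In Acod1-/- BMDMs the change with PM was not called without the first vehicle-treated (adjusted p = 0.130) or the second PM-treated library (0.102), nor that from vehicle to OI+PM without the second vehicle-treated (0.0899) or the second OI+PM-treated library (0.0866). These levels rest on few counts, 11 over the 2 OI+PM-treated WT libraries (9 and 2) and 26 over those of Acod1-/- BMDMs, against 203 and 150 after PM. By counting error alone, the ratio of PM to OI+PM was 16.7 in WT (95% exact interval 9.12 to 33.9) and 5.51 in Acod1-/- BMDMs (3.62 to 8.71). Such intervals cover counting error only. The fitted WT change from PM was -5.36 without the first OI+PM-treated library and -3.42 without the second. The WT change from vehicle to OI+PM ran from -4.14 to -2.20 on the log2 scale with a library left out.

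H2-Ab1 encodes the beta chain of I-A. It stood at 2.38 and 2.06 normalised CPM with vehicle, 2.94 and 3.26 with PM, and 0.928 and 1.56 with OI+PM in WT BMDMs. Acod1-/- libraries gave 1.23 and 2.08, 2.76 and 3.36, and 0.842 and 0.801. PM libraries were again highest and OI+PM libraries lowest, without overlap in either genotype. The increase with PM was called in Acod1-/- BMDMs (0.89 ± 0.253 on the log2 scale, adjusted p = 0.0297) and not in WT (0.48 ± 0.240, adjusted p = 0.158), and the difference between these changes was not called (adjusted p = 0.9998). OI+PM lowered H2-Ab1 2.52-fold from PM in WT (-1.33 ± 0.272, adjusted p = 0.00312) and 3.72-fold in Acod1-/- BMDMs (-1.90 ± 0.291, adjusted p = 0.000578). Relative to vehicle, it fell by 0.85 on the log2 scale in WT (adjusted p = 0.0228) and by 1.01 in Acod1-/- BMDMs (adjusted p = 0.0241). These calls against vehicle and that with PM rested on single libraries. In WT the fall was not called without the first vehicle-treated (adjusted p = 0.106) or the first OI+PM-treated library (0.143), or with the compared groups alone (0.0513). Among Acod1-/- libraries, leaving out the second vehicle-treated (adjusted p = 0.209) or either OI+PM-treated library (0.0865 and 0.107) ended the fall's call, and leaving out the first vehicle-treated (0.213) or either PM-treated library (0.0661 and 0.157) ended that of the increase.

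H2-Eb1 encodes the beta chain of I-E, the other class II molecule of mice. Its alpha chain gene H2-Ea, which is defective on the H-2b haplotype of C57BL/6 mice, had no count in any of the 12 libraries. H2-Eb1 had 33 and 31 counts with vehicle, 49 and 55 with PM, and 10 and 8 with OI+PM in WT BMDMs. Acod1-/- libraries had 13 and 17, 37 and 37, and 7 and 4. The 3 treatments did not overlap in either genotype. Fitted with the 10-count filter, H2-Eb1 rose 1.78-fold with PM in WT (0.83 ± 0.211, adjusted p = 0.0210) and 2.60-fold in Acod1-/- BMDMs (1.38 ± 0.257, adjusted p = 0.00317). With OI+PM it was 5.15-fold below PM in WT (-2.36 ± 0.271, adjusted p = 3.58e-05) and 6.24-fold below it in Acod1-/- BMDMs (-2.64 ± 0.318, adjusted p = 5.92e-05). Against vehicle it was 2.89-fold lower in WT (adjusted p = 0.00127) and 2.40-fold lower in Acod1-/- BMDMs (adjusted p = 0.0264). The WT increase with PM was called under 6 of 11 alternative settings, with adjusted p from 0.0219 to 0.146, and was lost without either vehicle-treated (0.0942 and 0.142) or the second PM-treated library (0.146). The fall below vehicle in Acod1-/- BMDMs was not called without the second vehicle-treated (adjusted p = 0.187) or the second OI+PM-treated library (0.229), in DESeq2 (0.0697) or with the compared groups alone (0.0548). The WT increase was also lost in DESeq2 (adjusted p = 0.0895) and with the compared groups alone (0.0563).

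Cd74, the invariant chain, was the most abundant of the 4 genes per length and had the smallest errors. It stood at 4.57 and 4.71 normalised CPM with vehicle, 10.5 and 9.89 with PM, and 1.98 and 2.06 with OI+PM in WT BMDMs. Acod1-/- libraries stood at 5.74 and 6.25, 12.7 and 10.8, and 2.53 and 2.53. The libraries of the 3 treatments were far apart relative to the spread within a group. PM raised Cd74 2.19-fold in WT (1.13 ± 0.107, adjusted p = 5.09e-05) and 1.96-fold in Acod1-/- BMDMs (0.97 ± 0.104, adjusted p = 0.000101). OI+PM brought it 5.03-fold below PM in WT (-2.33 ± 0.123, adjusted p = 2.23e-07) and 4.64-fold below PM in Acod1-/- BMDMs (-2.21 ± 0.117, adjusted p = 2.36e-07). It was then 2.30-fold below vehicle in WT (adjusted p = 3.18e-05) and 2.37-fold below vehicle in Acod1-/- BMDMs (adjusted p = 1.73e-05). Each of these 6 changes was called under all 13 alternative settings run for it.

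Ciita, the coactivator, was close to the limit of detection. It had 9 and 11 counts with vehicle, 16 and 12 with PM, and 0 and 2 with OI+PM in WT BMDMs. In Acod1-/- BMDMs it had 18 and 16, 18 and 15, and 1 and 4. Vehicle and PM libraries overlapped in Acod1-/- BMDMs and were 1 count apart in WT, and OI+PM libraries were lowest in both genotypes. Over the 2 libraries, the ratio of PM to OI+PM was 12.6 in WT (28 against 2 counts, 95% exact interval 3.19 to 110) and 6.31 in Acod1-/- BMDMs (33 against 5, 2.45 to 20.7). In the fit with the 10-count filter, the change from PM to OI+PM was called in WT (-3.51 ± 0.743 on the log2 scale, adjusted p = 0.00373) and in Acod1-/- BMDMs (-2.58 ± 0.592, adjusted p = 0.00720), and that from vehicle to OI+PM was called in both (adjusted p = 0.0111 and 0.00548). A fitted change at such counts depends on the settings, and in WT the change from PM was -2.51 without the first OI+PM-treated library and -6.83 without the second. In Acod1-/- BMDMs the call was lost without the first OI+PM-treated library (-1.92, adjusted p = 0.0803). Leaving out the first OI+PM-treated library also ended the call against vehicle, in WT (adjusted p = 0.0746) and in Acod1-/- BMDMs (0.0602). With the compared groups alone neither WT call remained (adjusted p = 0.0759 from PM and 0.0564 from vehicle). With PM the fitted change was 0.61 ± 0.455 in WT (adjusted p = 0.395) and 0.04 ± 0.400 in Acod1-/- BMDMs (adjusted p = 0.971). The 95% intervals of these changes ran from -0.38 to 1.61 and from -0.84 to 0.92, so that an increase as large as that of H2-Aa lay inside the WT interval and outside that of Acod1-/- BMDMs.

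H2-DMa and H2-DMb1 encode the peptide exchange factor. H2-DMa stood at 14.9 and 15.2 normalised CPM with vehicle, 14.9 and 18.9 with PM, and 13.9 and 14.6 with OI+PM in WT BMDMs, and at 12.4 and 12.6, 14.8 and 15.7, and 8.54 and 10.9 in Acod1-/- BMDMs. The treatments were close together in WT, and in Acod1-/- BMDMs OI+PM was lowest. H2-DMa fell with OI+PM relative to PM in Acod1-/- BMDMs (-0.65 ± 0.135, adjusted p = 0.00382), and the WT change was not called (-0.24 ± 0.131, adjusted p = 0.161). The WT change was called under 4 of 13 alternatives, namely without the first PM-treated library (-0.41, adjusted p = 0.0377), under total count scaling (-0.37, 0.0388) and with the gene length correction without or with the replicate block (-0.29, 0.0484, and -0.28, 0.0328). The difference between these 2 changes was itself not called (-0.41 ± 0.188, adjusted p = 0.776). H2-DMb1 stood at 25.6 and 27.2 with vehicle, 31.4 and 37.1 with PM, and 30.4 and 40.1 with OI+PM in WT BMDMs, and at 24.7 and 25.3, 28.9 and 28.9, and 27.4 and 27.3 in Acod1-/- BMDMs. OI+PM and PM libraries overlapped in WT. The change from PM to OI+PM was 0.04 ± 0.122 in WT (95% interval -0.23 to 0.32, adjusted p = 0.80) and -0.08 ± 0.124 in Acod1-/- BMDMs (-0.36 to 0.20, adjusted p = 0.666). Under total count scaling the WT value was -0.09. Neither interval held a change as large as that of any of the 3 chains or Cd74. The H2-DMb1 window carries the X and Y box letters at the same spacing as that of H2-Aa, and whether the letters bear on these changes was not tested. In WT, H2-DMb1 passed the threshold with PM (0.38 ± 0.122, adjusted p = 0.0498) and with OI+PM against vehicle (0.42 ± 0.123, adjusted p = 0.0132), and with a correction for gene length these changes were 0.15 (adjusted p = 0.0748) and 0.05 (adjusted p = 0.499). The first was called under 5 of 13 alternatives and also ended under total count scaling (adjusted p = 0.0684), the 10-count filter (0.0557) and the stricter CPM filter (0.0539). The second was called under 7 of 13 and also ended under total count scaling (0.19, adjusted p = 0.133) and with the compared groups alone (adjusted p = 0.0807). Without either vehicle-treated or the second PM-treated WT library the first of them was not called (adjusted p = 0.238, 0.132 and 0.321), and without the first vehicle-treated or the second OI+PM-treated library the second was not (0.0809 and 0.0941). Its near-identical paralog H2-DMb2 could share reads with it, and had between 11 and 47 counts per library.

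Ctss, the cathepsin that trims the invariant chain, made up between 98.2% and 98.9% of the summed CPM of the 8 genes in every library. It stood at 3147 and 3074 normalised CPM with vehicle, 3583 and 3996 with PM, and 2881 and 3314 with OI+PM in WT BMDMs. Acod1-/- libraries stood at 3283 and 3315, 4420.4 and 4097, and 3652 and 3704. PM libraries were highest in both genotypes, and the differences were small beside those of the chains. Ctss rose 1.22-fold with PM in WT (0.28 ± 0.0780, adjusted p = 0.0261) and 1.29-fold in Acod1-/- BMDMs (0.37 ± 0.0780, adjusted p = 0.00716). With OI+PM it was 1.22-fold below PM in WT (adjusted p = 0.0130), and 1.16-fold below it in Acod1-/- BMDMs without being called (adjusted p = 0.0612). The latter was called under 6 of 13 alternatives, DESeq2 (0.0486), total count scaling (0.00468), the gene length correction (0.0170) and the compared groups alone (0.00215) among them. Relative to vehicle, its OI+PM level differed by -0.01 ± 0.0779 on the log2 scale in WT (95% interval -0.18 to 0.17) and by 0.16 ± 0.0779 in Acod1-/- BMDMs (-0.02 to 0.33). Without either vehicle-treated or the second PM-treated WT library the increase was not called (adjusted p = 0.113, 0.134 and 0.193), nor was that of Acod1-/- BMDMs without either vehicle-treated or the first PM-treated library (0.0584, 0.05003 and 0.0702). The WT fall was not called without the second PM-treated library (adjusted p = 0.0820) or with the compared groups alone (0.130). With the correction for gene length the change with PM was 0.03 in WT (adjusted p = 0.761) and 0.17 in Acod1-/- BMDMs (0.0761), and the OI+PM level in WT was called below vehicle (-0.42, adjusted p = 0.000258).

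With PM, 4 of the 6 tested members were called higher in WT (H2-Aa, Cd74, H2-DMb1 and Ctss) and 4 in Acod1-/- BMDMs (H2-Aa, H2-Ab1, Cd74 and Ctss), and none was called lower in either. Without H2-Aa these were 3 of 5 in both genotypes. Among all tested genes 12.6% were called higher and 12.2% lower in WT, and 12% higher and 11.9% lower in Acod1-/- BMDMs. H2-Eb1 was called higher in both genotypes in the fit with the 10-count filter, where 7.89% of genes in WT and 7.94% in Acod1-/- BMDMs were. The WT count was 1 without the second vehicle-treated library, where H2-Aa had an adjusted p of 0.0587, and 2 without the first vehicle-treated or the second PM-treated library. In Acod1-/- BMDMs it was 1 without the first vehicle-treated library and 2 without either PM-treated library.

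From PM to OI+PM, 4 of the 6 were called lower in WT (H2-Aa, H2-Ab1, Cd74 and Ctss) and 4 in Acod1-/- BMDMs (H2-Aa, H2-Ab1, Cd74 and H2-DMa), and none higher. Without H2-Aa these were again 3 of 5 in both genotypes. The background was 22.6% lower and 21.3% higher in WT and 20.6% lower and 13.9% higher in Acod1-/- BMDMs. H2-Ab1 and Cd74 were past 2-fold in both genotypes, as was H2-Aa, a size reached by 8.49% of tested genes in WT and 7.98% in Acod1-/- BMDMs. H2-Eb1 and Ciita were called lower in both genotypes in the fit with the 10-count filter, beside 15.4% of its genes in WT and 13.5% in Acod1-/- BMDMs. This comparison shares its PM libraries with that of PM against vehicle, so the 2 are not independent.

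From vehicle to OI+PM, 3 of the 6 were called lower in both genotypes (H2-Aa, H2-Ab1 and Cd74), or 2 of 5 without H2-Aa, and H2-DMb1 was called higher in WT. In WT 31.9% of tested genes were called lower and 33.6% higher, and in Acod1-/- BMDMs 26.7% lower and 22.7% higher. H2-Eb1 and Ciita were again called lower in both, beside 22.9% of the genes with at least 10 counts in WT and 18.3% in Acod1-/- BMDMs. H2-DMa was at -0.36 ± 0.136 in Acod1-/- BMDMs (adjusted p = 0.0503), and was called lower under 9 of 13 alternatives, among them DESeq2 (0.0385), RLE scaling (0.0457), the replicate block (0.0228) and the gene length correction (0.00954). The WT count of called members was 2 without the first vehicle-treated library, and that of Acod1-/- BMDMs was 1 without the second. The vehicle libraries are shared with the comparison of PM against vehicle.

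**Figure D2:**
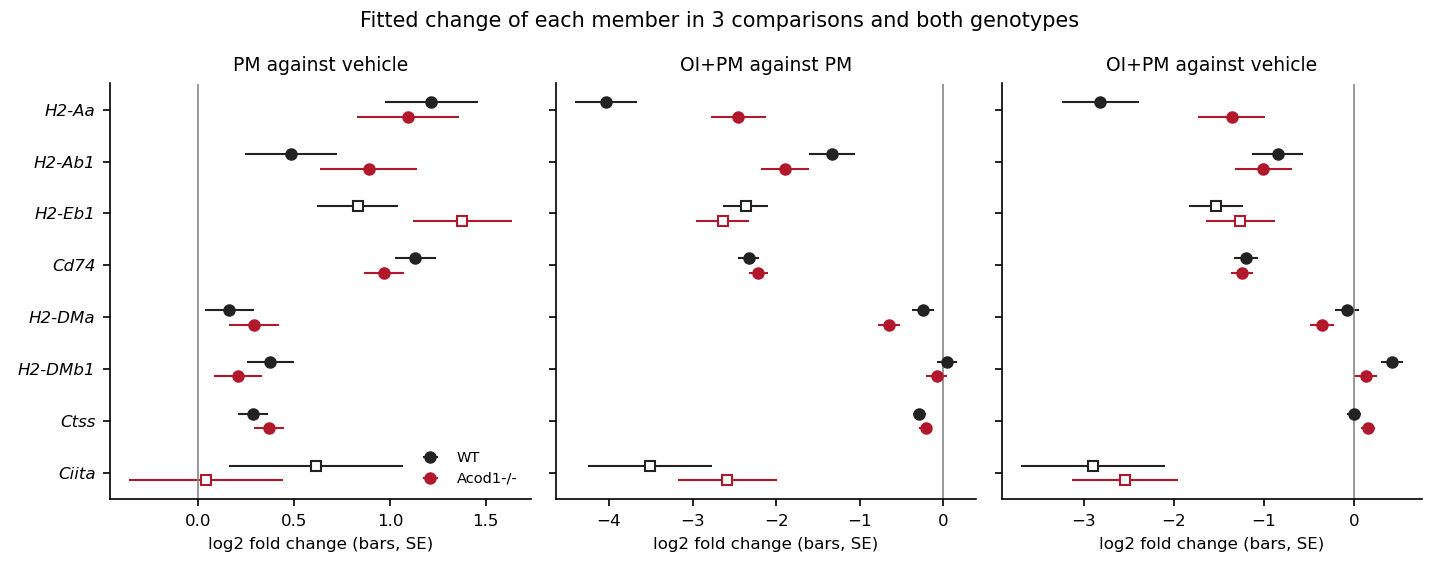
Fitted log2 fold change (horizontal axis, bars 1 SE) of each member for PM against vehicle, OI+PM against PM and OI+PM against vehicle, in WT (black) and Acod1-/- (red) BMDMs. Open squares are H2-Eb1 and Ciita, from the fit with the 10-count filter. From PM to OI+PM the changes of H2-Aa, H2-Ab1, H2-Eb1, Cd74 and Ciita run from -1.33 to -4.03, and those of H2-DMa, H2-DMb1 and Ctss from -0.65 to 0.04.

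**Figure D3:**
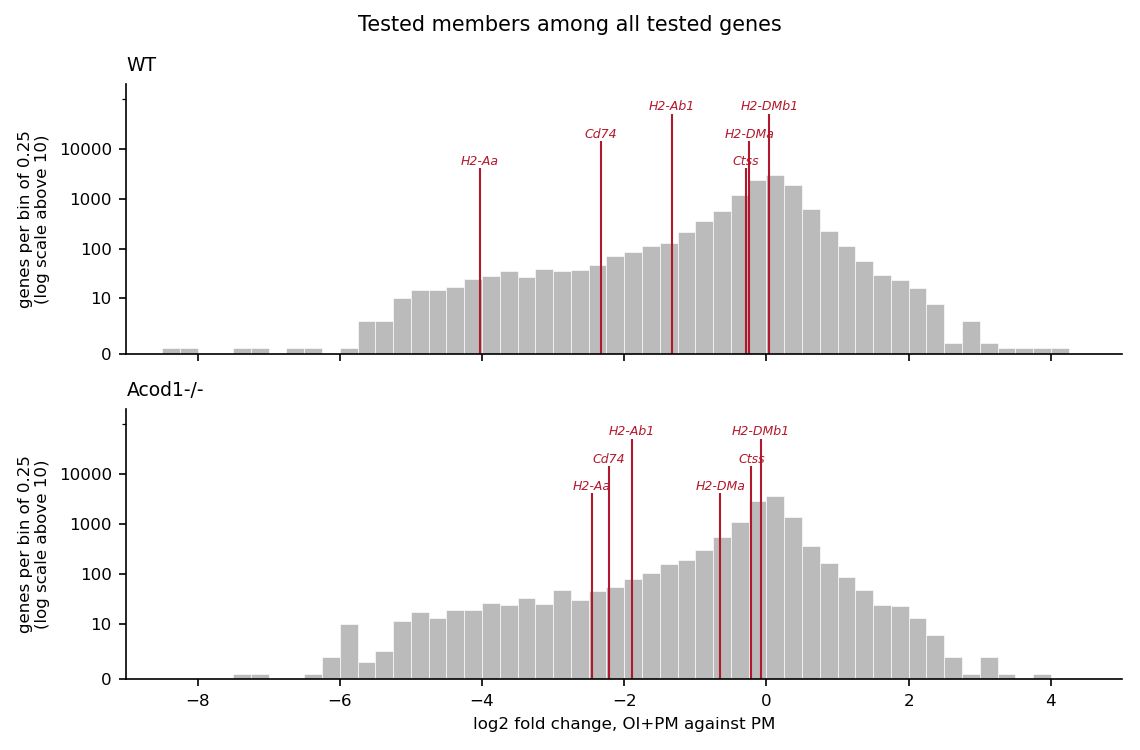
Number of tested genes (vertical axis, logarithmic above 10) in each bin of log2 fold change from PM to OI+PM (horizontal axis) in WT and Acod1-/- BMDMs, with the 6 tested members as red lines. H2-Aa, H2-Ab1 and Cd74 sit in the lower tail of all 11228 genes, and H2-DMb1 near the centre.

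No member was called between genotypes with vehicle, where 0.891% of tested genes were called higher and 0.935% lower in Acod1-/- BMDMs, or after PM, where 1.1% were called higher and 1.3% lower. The 95% interval of the difference with vehicle was -0.93 to 0.34 for H2-Aa, -1.0 to 0.16 for H2-Ab1 and 0.12 to 0.62 for Cd74 on the log2 scale. H2-Eb1 had 13 and 17 counts in vehicle-treated Acod1-/- libraries against 33 and 31 in WT, without overlap, a difference of -1.01 ± 0.264 that was not called (adjusted p = 0.134). After OI+PM, H2-DMa was called lower in Acod1-/- BMDMs (-0.55 ± 0.136, adjusted p = 0.0409), beside 4.45% of tested genes called lower and 2.51% higher. That call was present under 7 of 13 alternative settings, with adjusted p from 0.00708 to 0.364, and it was lost without the second OI+PM-treated WT library or without either of those of Acod1-/- BMDMs. Without the first OI+PM-treated WT library 3 members were called in this comparison, and without either of the Acod1-/- libraries 0 were. Ctss was not called here (0.25 ± 0.0780, adjusted p = 0.0814) but was called higher under 5 of 13 alternatives, DESeq2 (0.0286) and the gene length correction (0.00286) among them.

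Whether the genotype altered the response was tested by interactions. Of 11228 genes, 0% were called higher or lower in edgeR for the response to PM and 0% for the change from PM to OI+PM, with 273 and 717 genes at an unadjusted p below 0.05. DESeq2 called 3 and 34 genes, none of them a member. The largest difference among the members was that of H2-Aa from PM to OI+PM, 1.58 ± 0.598 on the log2 scale (95% interval 0.25 to 2.92, adjusted p = 0.759), where the fall was smaller in Acod1-/- BMDMs. It was 2.9 without the first OI+PM-treated WT library (adjusted p = 0.0592) and 0.96 without the second (adjusted p = 0.799). For Cd74 the differences were -0.16 ± 0.149 for PM (95% interval -0.50 to 0.17) and 0.12 ± 0.174 for OI (-0.27 to 0.51), and neither interval reached beyond 0.51.

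CIITA acts through DNA-binding proteins and other coactivators. Of 9 genes of the class II transcription apparatus, all tested, 3 were called lower and none higher with PM in WT, and 1 lower in Acod1-/- BMDMs, beside 12.2% and 11.9% of all tested genes called lower. From PM to OI+PM 2 were called lower in WT, and 1 lower and 1 higher in Acod1-/- BMDMs, with list medians of -0.18 and -0.05. Of all tested genes, 22.6% in WT and 20.6% in Acod1-/- BMDMs were called lower there, so the list's share was no higher. Rfx5, the DNA-binding subunit of RFX, was the gene that fell most. It stood at 11.9 and 10.8 normalised CPM with PM and 5.45 and 5.45 with OI+PM in WT, and at 11.6 and 13.2 and 6.31 and 6.44 in Acod1-/- BMDMs. The change was -1.05 in WT (adjusted p = 1.62e-05) and -0.96 in Acod1-/- BMDMs (adjusted p = 2.85e-05), and from vehicle to OI+PM it was -1.26 (adjusted p = 2.85e-06) and -1.06 (adjusted p = 9.32e-06). Nfyb, a subunit of NF-Y, fell with PM by 0.23 in WT (adjusted p = 0.0407) and by 0.33 in Acod1-/- BMDMs (adjusted p = 0.00815). Exons of Rfx5 overlap a noncoding gene on the other strand.

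Interferon-gamma itself had no count in any library. Of 11 genes of its signalling to Ciita, 9 were tested. With PM 3 were called higher and 1 lower in WT, and 4 higher in Acod1-/- BMDMs, beside 12.6% higher and 12.2% lower of all tested genes in WT and 12% higher in Acod1-/- BMDMs. From PM to OI+PM 4 were called lower in both genotypes, and 1 higher in WT, with list medians of -0.17 and -0.11, beside 22.6% and 20.6% of all tested genes called lower. Irf1, a transcription factor that acts on Ciita, stood at 49.0 and 51.2 normalised CPM with vehicle, 94.1 and 94.9 with PM, and 76.8 and 83.2 with OI+PM in WT. Acod1-/- libraries stood at 57.6 and 57.2, 132 and 123, and 91.6 and 91.2. The OI+PM libraries lay between those of vehicle and PM, without overlap. Irf1 rose with PM by 0.92 in WT (adjusted p = 7.90e-06) and 1.15 in Acod1-/- BMDMs (adjusted p = 1.45e-06). With OI+PM it was lower than with PM, by 0.24 in WT (adjusted p = 0.0131) and 0.48 in Acod1-/- BMDMs (adjusted p = 0.000225), and stayed above vehicle, unlike Cd74 (0.68 in WT, adjusted p = 1.43e-05, and 0.67 in Acod1-/- BMDMs, adjusted p = 1.63e-05). Ifngr1, a chain of the receptor, was lower with OI+PM than with PM by 0.48 in WT (adjusted p = 4.51e-05) and 0.51 in Acod1-/- BMDMs (adjusted p = 2.99e-05).

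**Figure D4:**
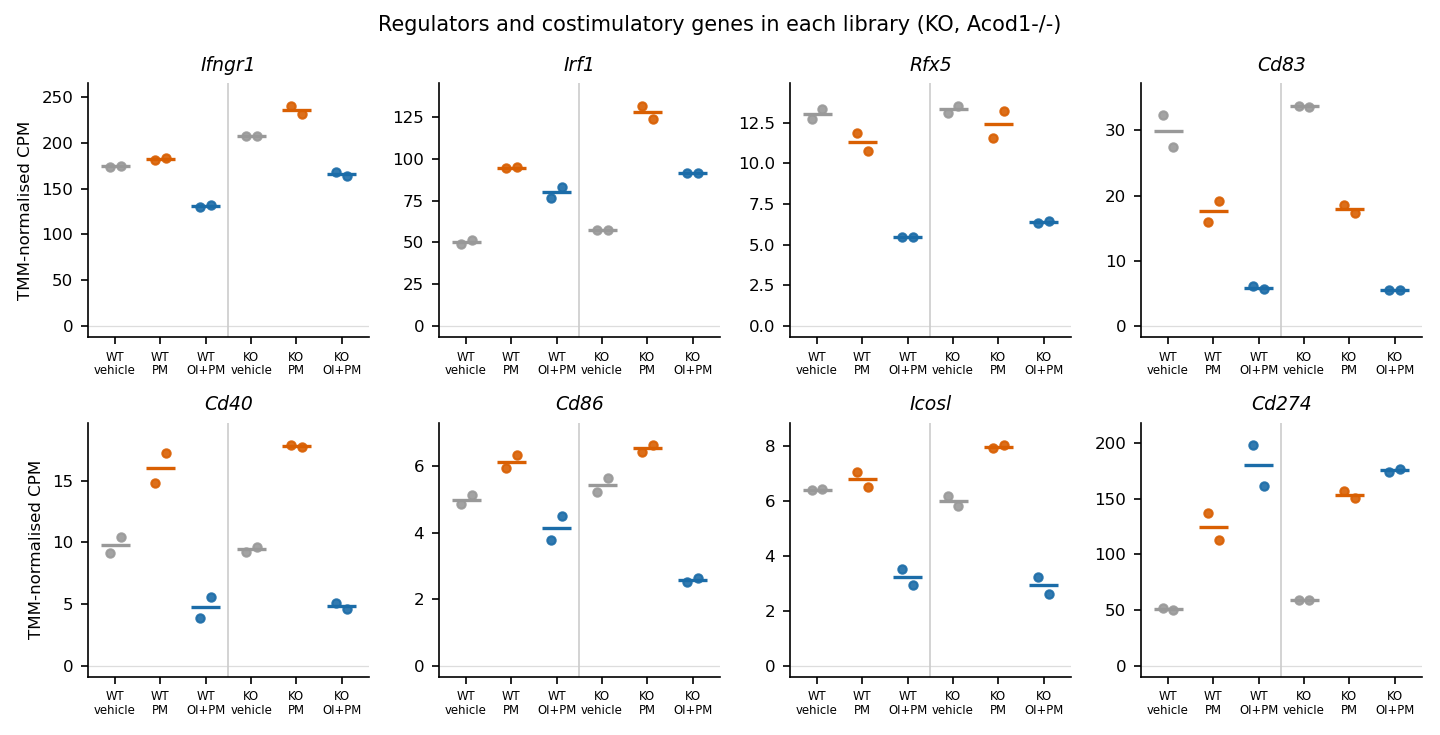
TMM-normalised CPM (vertical axis, from 0 and on its own scale for each gene) of Ifngr1, Irf1 and Rfx5, of Cd83 and of 4 costimulatory genes in each of the 12 libraries (points), with group means as lines. Ifngr1, Rfx5, Cd83, Cd40 and Icosl are lowest in the OI+PM libraries of both genotypes, and Cd274 is highest there.

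Of 9 endolysosomal processing genes beside Ctss, 3 were called higher and 1 lower with PM in WT, and 4 higher and 1 lower in Acod1-/- BMDMs, beside 12.6% and 12% of all tested genes called higher and 12.2% and 11.9% lower. From PM to OI+PM 2 were called lower and none higher in both genotypes, a share close to the 22.6% and 20.6% of all tested genes. Those called were Ctsb, a cathepsin, by 0.36 in WT (adjusted p = 0.00226) and 0.49 in Acod1-/- BMDMs (adjusted p = 0.000348), and Lgmn, an asparaginyl endopeptidase, by 0.30 (adjusted p = 0.00276) and 0.50 (adjusted p = 9.36e-05). Ctsz was the most changed with PM, at 0.85 in WT (adjusted p = 0.00178) and 0.87 in Acod1-/- BMDMs (adjusted p = 0.00138). None of the 9 moved past 2-fold in these comparisons. Of 4 genes that act on class II at the surface or on Cd74 fragments, Cd83, which protects class II from ubiquitination, was the only one called from PM to OI+PM. It went from 16.0 and 19.2 to 6.08 and 5.62 normalised CPM in WT and from 18.6 and 17.4 to 5.59 and 5.58 in Acod1-/- BMDMs, changes of -1.59 (adjusted p = 3.10e-06) and -1.69 (adjusted p = 2.17e-06). With PM, Cd83 fell in both genotypes by 0.77 (adjusted p = 0.000675) and 0.91 (adjusted p = 0.000197), opposite to Cd74.

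Of 6 costimulatory genes, 5 were tested, and from PM to OI+PM 4 were called lower in both genotypes and 1 higher in WT, beside 22.6% and 20.6% of all tested genes called lower. Cd40, the receptor for the T cell ligand CD40L, went from 14.8 and 17.2 to 3.86 and 5.58 normalised CPM in WT (-1.77, adjusted p = 9.98e-06) and from 17.9 and 17.7 to 5.05 and 4.56 in Acod1-/- BMDMs (-1.89, adjusted p = 6.01e-06). Icosl, the ligand of ICOS, fell by 1.07 (adjusted p = 8.45e-05) and 1.45 (adjusted p = 9.51e-06), and Cd86, a ligand of CD28, by 0.57 (adjusted p = 0.00254) and 1.34 (adjusted p = 1.15e-05). Cd274, which encodes the inhibitory ligand PD-L1, rose in the same comparison in WT by 0.53 (adjusted p = 0.00307). It rose with PM by 1.30 in WT (adjusted p = 2.74e-05) and 1.39 in Acod1-/- BMDMs (adjusted p = 1.34e-05).

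Of 5 other class II genes, H2-DMb2, a second beta chain gene of H2-DM, was the most counted. It had 33 and 47 counts with vehicle, 25 and 17 with PM, and 12 and 11 with OI+PM in WT, and 21 and 24, 32 and 17, and 13 and 19 in Acod1-/- BMDMs. Its libraries did not overlap between treatments in WT, where vehicle and not PM was highest. In the fit with the 10-count filter its change with PM was -0.79 ± 0.328 in WT (adjusted p = 0.130) and 0.21 ± 0.352 in Acod1-/- BMDMs (adjusted p = 0.759), and that from vehicle to OI+PM was called in WT (-1.50 ± 0.371, adjusted p = 0.00592), as were 22.9% of all genes in that fit in that direction. H2-Eb2 had 3 counts over the 12 libraries, H2-Oa had between 0 and 7 per library, and H2-Ob, which with H2-Oa forms an inhibitor of H2-DM, between 0 and 15. H2-Ob had 12 and 11 counts in vehicle-treated WT libraries and 0 and 1 in those with OI+PM. None of these 5 genes passed the CPM filter.

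The genes whose pattern was most like the mean of H2-Aa, H2-Ab1, H2-Eb1 and Cd74 over the 12 libraries were Phf11b (Pearson r of 0.982), Mcl1 (0.982), Ikbke (0.981), Il1rn (0.978) and Ifi209 (0.976), out of 9568 compared. The 12 points are 6 groups of 2 libraries and share their treatments and depths, so r is a description. Phf11b stood between 8.73 and 8.79 normalised CPM with vehicle, 14.9 and 18.1 with PM, and 1.71 and 1.89 with OI+PM in WT. The genes that form the mean had lower r than those named above, 0.957 for H2-Aa, 0.926 for H2-Ab1, 0.956 for H2-Eb1 and 0.958 for Cd74. The same r was 0.812 for Ciita, 0.660 for H2-DMa, 0.506 for Ctss and 0.0064 for H2-DMb1.

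All 6 macrophage markers were counted in every library. Their sum was 14266 ± 116 normalised CPM with vehicle, 24623 ± 2509 with PM and 15350 ± 1510 with OI+PM in WT, and 13942 ± 65.1, 25440 ± 1986 and 15041 ± 272 in Acod1-/- BMDMs. Most of it was Lyz2, with group means of 9992, 19458 and 10829 in WT and 9129, 19617 and 10466 in Acod1-/- BMDMs. With PM 3 of the 6 were called higher in both genotypes (12.6% and 12% of all tested genes), and from PM to OI+PM 4 were called lower in both (22.6% and 20.6%) and 1 higher in WT (21.3%). Of 7 dendritic cell markers, Flt3 and Ccr7 had 1 count each over all libraries, whereas Zbtb46 had 17 to 35 counts per group and Clec9a 12 to 36, numbers like those of Ciita. Of the B cell markers, Cd79a had 3 counts in all, and Cd79b had 66 to 241 per group. The sum over 7 dendritic cell markers ran between 0.561 and 0.764 with vehicle, 0.657 and 0.721 with PM, and 0.338 and 0.599 with OI+PM in WT, and between 0.694 and 0.738, 0.706 and 0.719, and 0.782 and 0.955 in Acod1-/- BMDMs. Clec9a stood at 0.233 with PM and 0.547 with OI+PM in Acod1-/- BMDMs, and Zbtb46 at 0.335 and 0.275. The sum over 6 B cell markers was 3.17 ± 0.665 with vehicle, 3.29 ± 1.1 with PM and 1.12 ± 0.105 with OI+PM in WT, and 2.58 ± 0.0478, 2.82 ± 0.0852 and 1.06 ± 0.197 in Acod1-/- BMDMs, nearly all of it Cd79b. Cd79b was the only B cell marker tested and fell from PM to OI+PM by 1.6 in WT (adjusted p = 0.00101) and 1.49 in Acod1-/- BMDMs (adjusted p = 0.00205). The sum over 6 neutrophil markers was 1.49 ± 0.336 with vehicle, 1.92 ± 0.0527 with PM and 0.215 ± 0.161 with OI+PM in WT. In Acod1-/- BMDMs it was 2.09 ± 0.0938, 3.87 ± 1.15 and 1.03 ± 0.499. Ngp passed the CPM filter through its PM-treated Acod1-/- libraries alone (1.65 and 2.56 normalised CPM), where it was highest, so its test is not used. Its group means were 0.990 with PM and 0.107 with OI+PM in WT, and 2.10 and 0.561 in Acod1-/- BMDMs. The sum over 4 fibroblast markers was 2.23 ± 0.513 with vehicle, 1.32 ± 0.113 with PM and 0.371 ± 0.238 with OI+PM in WT, and 1.89 ± 0.155, 2.37 ± 0.0165 and 0.757 ± 0.374 in Acod1-/- BMDMs. Of 5 T and NK cell markers at most 1 had a count in any library. The macrophage, B cell, neutrophil and fibroblast sums were lower with OI+PM than with PM beside the class II genes, and their part in the result was not tested.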

How the data were processed

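Total RNA of 12 BMDM cultures (2 libraries in each of 6 groups) was sequenced by the authors as single-end reads of 50 bp. Per the submitters' processing notes, FastQC 0.11.5, STAR 2.5.3a, Picard 2.9.0, featureCounts and DESeq2 were used with GRCm38. The deposited files give whole-number read counts for each gene, and how strand was handled and the annotation release are not given in the sources used here. Totals per library were 33616577 to 36817898. Counts of H2-Eb1 and Ciita, and those of H2-Aa with OI+PM, were few enough for counting error to limit them.

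Counts were scaled by TMM and fitted in edgeR 4.0.16 (R 4.3.3) by the quasi-likelihood method, with 6 group means and 6 residual degrees of freedom, for the 11228 genes with CPM above 1.5 in at least 2 libraries. Benjamini-Hochberg adjustment ran over all genes tested. H2-Eb1 and Ciita took their values from the fit of genes with at least 10 counts, which replaced the planned test because both were under the CPM filter. Adjusted p of 0.05 or less was called, and 2-fold is the size the study used. The scripts were tested on simulated data. Alternatives were DESeq2 1.42.0, RLE and total count scaling, a replicate block, a gene length correction (lowess of span 0.3), other filters, the compared groups alone and leaving out each library. Those combining the 10-count filter with another choice were chosen after seeing the data. Positions and exonic lengths are from GENCODE vM21, promoter windows from RefSeq (GRCm38.p6). Named genes were the members, up to 3 called genes of each related list with the smallest p in a comparison, and the 5 genes most alike among those averaging at least 5 CPM (H2-Ob and the marker genes were chosen after their values were seen). The members and lists were chosen with earlier results of these data known.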

Additional observations from a re-analysis of the deposited data

How the results depend on the processing

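Of 1139 alternative values of a member's change, 1010 kept their direction and their side of the threshold, 59 lost and 35 gained a call, and 35 changed sign, 0 of them with a call under the alternative. The falls of H2-Aa, H2-Ab1, H2-Eb1 and Cd74 from PM to OI+PM were called under all alternatives run for them in both genotypes. Low counts limit H2-Eb1 and Ciita, and H2-Aa with OI+PM, and 2 libraries a group limit all results. Where values below moved, the cause was not tested, except that a filter asking for more than 1.5 CPM in each of the 12 libraries leaves fewer members to test.

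With that filter 2 members were called with PM in WT, 2 with PM in Acod1-/- BMDMs, 2 from PM to OI+PM in WT and 2 from vehicle to OI+PM in WT. With the gene length correction, without or with the replicate block, 2 were called with PM in WT and 2 between genotypes after OI+PM, where DESeq2 also called 2. With the 10-count filter 5 were called from vehicle to OI+PM in Acod1-/- BMDMs and 0 between genotypes after OI+PM. With the compared groups alone, 2 were called from vehicle to OI+PM in WT, 6 in Acod1-/- BMDMs, 2 between genotypes with vehicle and 0 after OI+PM. Over all genes, DESeq2 called 434 between genotypes after PM against 269 in edgeR, and 1321 against 782 after OI+PM.

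Leaving out each library in turn, the members called ran from 1 to 4 with PM in WT and from 1 to 3 in Acod1-/- BMDMs. They ran from 3 to 5 from PM to OI+PM in WT and stayed at 4 in Acod1-/- BMDMs, and ran from 2 to 4 from vehicle to OI+PM in WT and from 1 to 3 in Acod1-/- BMDMs. Between genotypes they ran from 0 to 3 after OI+PM and stayed at 0 with vehicle, after PM and in both interactions.

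Signs changed as follows. Under total count scaling the median change of all genes was -0.11 from PM to OI+PM in WT (0.02 with TMM), and -0.20 in WT (0.02) and -0.15 in Acod1-/- BMDMs (-0.01) from vehicle to OI+PM. There Ciita with PM in Acod1-/- BMDMs was -0.044, H2-DMb1 from PM to OI+PM in WT was -0.093 and H2-DMb1 from vehicle to OI+PM in Acod1-/- BMDMs was -0.022. With the length correction, without and with the block, H2-DMb1 was -0.10 and -0.10 from PM to OI+PM in WT and -0.057 and -0.056 from vehicle to OI+PM in Acod1-/- BMDMs. Ctss was -0.055 and -0.056 in the latter, H2-Ab1 was 0.032 and 0.030 between genotypes after PM, and H2-DMb1 was 0.0025 and 0.0030 in the interaction with OI. With a library left out, H2-DMa with PM in WT ran from -0.019 to 0.32, Ciita with PM in Acod1-/- BMDMs from -0.11 to 0.18, H2-DMb1 from PM to OI+PM in WT from -0.17 to 0.23, and Ctss from vehicle to OI+PM in WT from -0.11 to 0.091. Between genotypes, H2-Ab1 after PM ran from -0.17 to 0.12, H2-DMa after PM from -0.31 to 0.039 and Ciita after OI+PM from -0.057 to 4.5. In the interaction with PM, H2-Aa ran from -0.35 to 0.14 and H2-DMa from -0.030 to 0.31. In that with OI, H2-Eb1 ran from -0.71 to 0.049, H2-DMb1 from -0.31 to 0.088, Ciita from -0.32 to 4.24 and Ctss from -0.018 to 0.18.

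The groups share replicate numbers 1 and 2, and no source used here says that a number marks a shared mouse, batch or day. Deviations of same-numbered libraries correlated at 0.73 between PM and OI+PM in WT, 0.23 between vehicle and PM and 0.24 between vehicle and OI+PM in WT, and at -0.41 between PM-treated WT and Acod1-/- libraries. With 2 numbers a group this does not establish pairs, and none were assumed. With the replicate block 4 members were called in each of the 6 treatment comparisons (H2-DMa was the addition from vehicle to OI+PM in Acod1-/- BMDMs), 1 between genotypes after OI+PM and 0 in the other genotype comparisons and interactions. Over all 11228 genes this fit called 3074 and 2863 with PM in WT and Acod1-/- BMDMs, 5128 and 4001 from PM to OI+PM, and 7479 and 5730 from vehicle to OI+PM.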
